A study of Mus musculus with 16 samples.

Results

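The comparison described here sets ES cells of the NOD mouse, the inbred strain that develops autoimmune diabetes, against ES cells of the 129 strain. Its members are 6 of the 16 arrays of the study and were chosen by their titles: the 3 arrays titled NOD-ES 4K, NOD ES 43 KP/CH and NOD ES 85 KP, and the 3 arrays titled 129 ES, of which 2 carry the mark mESM P8 and 1 the mark epiESM P8. The other 10 arrays hold EpiSC, EpiSC-like NOD lines and iPS cells made from EpiSC. They enter the fits, where they share the estimate of the spread. The EpiSC-like arrays are P5, P7, P9 and P10 of NOD EpiSC-like ES #1, and P7 and P12 of NOD EpiSC-like iPS #6. The EpiSC arrays are P12 and P20. Part of the shared spread therefore lies between passages of a single line. Total RNA was labelled with Cy3 and hybridised to 1-colour Agilent mouse arrays, and each ES culture had been preplated on gelatin to deplete embryonic fibroblasts before RNA was isolated. The labels give the strain as NOD or non-NOD and the cell line as ES. What 4K, 43 KP/CH, 85 KP, mESM and epiESM stand for is not given in the labels, and no passage is given for the NOD ES arrays, so strain, line, culture and passage cannot be told apart in any difference below. The labels do not say whether the arrays of a group come from separate cultures or animals. P-values then measure only the spread between these arrays, which may be technical.

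ES cells are lines grown from the epiblast of the blastocyst. In the naive state, a set of transcription factors that includes Esrrb, Tbx3, Nr5a2 and the Kruppel-like factors holds up Pou5f1, Sox2 and Nanog, and LIF acting through Stat3 together with WNT signalling feeds this set, whereas FGF signalling through ERK pushes cells towards the primed state of the later epiblast. NOD is known as a strain from which naive ES cells are hard to keep in standard culture, while 129 is the classical permissive strain. NOD epiblast cells tend to settle in the primed state unless reprogramming factors or small molecules are added.

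The 6 arrays were not equally bright, and they did not fall apart by strain alone. Spots well above background made up 26.3%, 67.4% and 71.9% of gene spots on NOD-ES 4K, NOD ES 43 KP/CH and NOD ES 85 KP, against 72.6%, 72.6% and 63.5% on the first mESM, the second mESM and the epiESM array of 129 ES. Below, the values of single arrays are given in this order. They are levels: the log2 signal of a gene's probe minus the array's own 75th percentile. NOD ES 43 KP/CH, NOD ES 85 KP and epiESM shared 1 slide, and the mESM arrays shared another. NOD-ES 4K was on a different slide, with the iPS arrays made from EpiSC. The part of slide in the distances between arrays was not tested. The SD of log2 differences was taken over gene probes well above background on both arrays of a pair, so pairs rest on unlike sets of probes. This SD was 0.29 between NOD ES 43 KP/CH and NOD ES 85 KP (27086 probes). Between NOD-ES 4K and these arrays it was 1.13 and 1.15, over only 10272 and 10331 probes. It was 0.77 to 0.84 between NOD ES 43 KP/CH or 85 KP and any 129 ES array, and 0.97 and 0.98 between the epiESM array and the mESM arrays, so the 129 ES cultures differed from each other by more than the 2 brighter NOD ES arrays differed from them. NOD-ES 4K lay nearest to an array of iPS cells made from EpiSC, titled iPS_EpiSC 3M (SD 0.70 over 10125 probes). The array iPS_EpiSC 1K, labelled non-NOD, lay nearer to NOD ES 43 KP/CH and 85 KP (0.39 and 0.40, over 16287 and 16332 probes) than to 3M (0.96, over 15577). Whether the label of either array matches its cells was not tested.

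**Figure D1:**
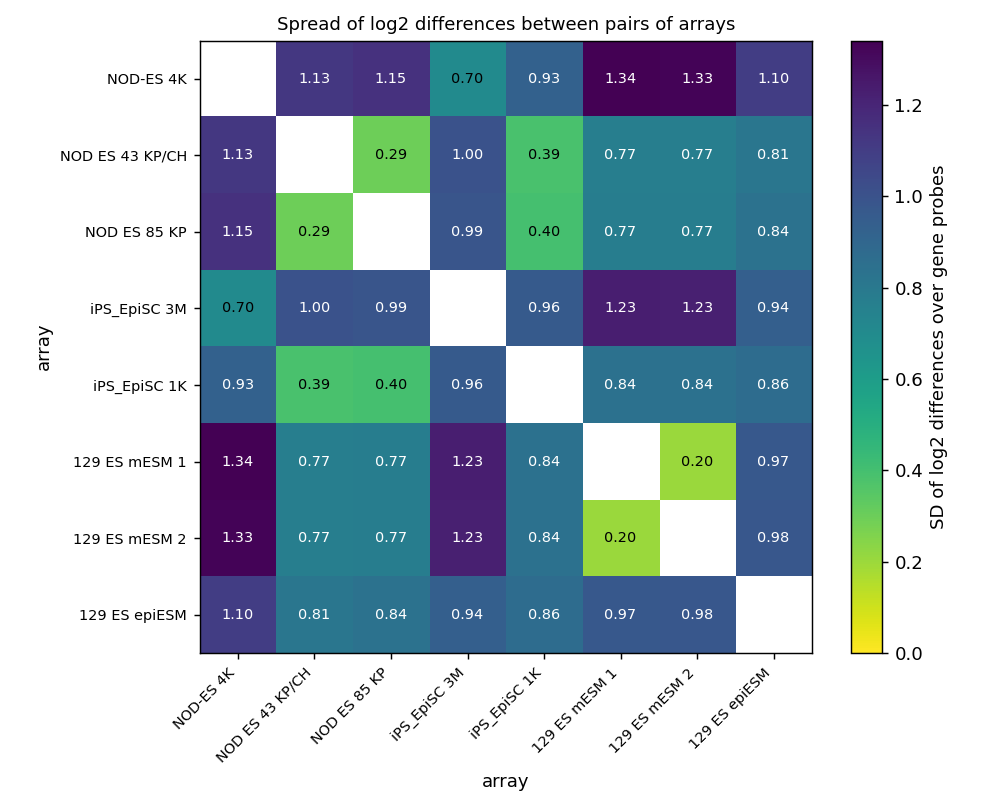
SD of the log2 differences over gene probes well above background on both arrays, for each pair among 8 arrays (rows and columns: 3 NOD ES, 2 iPS made from EpiSC, 3 129 ES). The set of probes differs between pairs and is smallest for those with NOD-ES 4K. NOD ES 43 KP/CH and 85 KP form a close pair (0.29), as do the mESM arrays (0.20), while NOD-ES 4K is at least 0.70 from every other array shown.

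The 2 mESM arrays share 1 source label and differed by an SD of 0.20. Spots of 1 probe within these arrays scatter enough to give an SD of 0.181 and 0.164 for the difference between 2 spots, so the pair differs little more than repeated spots do, and it may be 1 RNA measured on 2 arrays. This bears on every call below. Of 23192 genes tested by limma with Benjamini-Hochberg adjustment, 628 (2.71%) passed an adjusted p of 0.05 with all arrays, 423 (1.82%) higher and 205 (0.884%) lower in NOD ES. Without NOD-ES 4K, 810 (3.49%) passed, 583 (2.51%) higher and 227 (0.979%) lower. With the mESM arrays averaged into 1 sample, limma called 0 genes in both fits, with 2793 and 3196 genes at an unadjusted p under 0.05. Fitted on the 6 ES arrays alone, the count was also 0 in both, with 2734 and 4677 genes at an unadjusted p under 0.05. With slide as a fixed block, which rests on the slide shared by NOD ES 43 KP/CH, NOD ES 85 KP and epiESM, 0 and 1443 passed, with 3205 at an unadjusted p under 0.05 in the first. The fit that gave 1443 also left out the iPS arrays made from EpiSC, so it differs from the fit that gave 810 by more than the slide term. The calls therefore describe what exceeds the spread in the fit to all arrays with each mESM array counted, and "rose" and "fell" are used below only for genes called in the fit named. For 5363 genes (23.1%) the 3 NOD ES and the 3 129 ES levels did not overlap.

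The epiESM array often lay nearer to NOD ES than the mESM arrays did. It shared a slide with NOD ES 43 KP/CH and 85 KP and the mESM arrays did not, so slide and culture cannot be told apart here. Of 685 genes that lay 2 or more log2 units apart between the mean of NOD ES 43 KP/CH and 85 KP and the mean of the mESM arrays, the epiESM array was nearer to NOD ES for 494 (72.1%), and of 4317 genes 1 or more apart it was nearer to NOD ES for 2820 (65.3%). Without the epiESM array, 2029 and 3005 genes passed with and without NOD-ES 4K. Of the 810 genes called without NOD-ES 4K, this array lay nearer to the other NOD ES arrays than to the 129 ES mean for 457 (56.4%), and for 333 of the 514 (64.8%) whose spot it measured above background. Both fits called 440 genes in the same direction, and for 439 of these the 3 against 3 levels did not overlap, 318 higher and 121 lower in NOD ES. As 627 of the 628 genes called with all arrays did not overlap, the lack of overlap adds no support to the calls. Of these 628 genes, 213 were not above background on NOD-ES 4K, 88 of them higher in NOD ES.

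The core factors that define pluripotent cells were present on all 6 arrays: each of the 13 tested genes of the core list was well above background on each. Pou5f1, the POU factor without which ES cells turn to trophectoderm, had levels of 2.21, 4.41 and 3.75 in NOD ES, against 4.45, 4.43 and 3.50 in 129 ES. Nanog, which sustains self-renewal, had levels of 0.58, 3.83 and 3.88 in NOD ES, against 3.90, 3.81 and 3.46 in 129 ES. Both groups overlap, NOD-ES 4K is the lowest array for both genes, and without it the differences were -0.05 ± 0.62 for Pou5f1 and 0.13 ± 0.58 for Nanog (log2, SE; limma adjusted p = 0.984 and 0.958). Sox2, the HMG-box partner of Pou5f1, differed by 0.02 ± 0.50 without NOD-ES 4K (adjusted p = 0.993). Of the 13 core genes, none was called with all arrays and 1 rose without NOD-ES 4K. This was Trim28, a corepressor that silences retroviral elements, with levels of 5.47, 6.64 and 6.53 in NOD ES, against 5.57, 5.57 and 5.90 in 129 ES (difference without NOD-ES 4K 0.91 ± 0.21, adjusted p = 0.0437). The median difference of the list was -0.37 with all arrays and 0.02 without NOD-ES 4K, beside 0.22 and 0.09 over all genes. Tdgf1, the NODAL co-receptor, was high on the mESM arrays (4.13 and 4.12) and had levels of 1.05, 2.35 and 2.14 in NOD ES, against 1.76 on epiESM. It was not called in either fit.

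Among naive-state transcription factors, 3 were higher in NOD ES 43 KP/CH and 85 KP than in every 129 ES culture and passed the test once NOD-ES 4K was left out. Klf4, a Kruppel-like factor induced by LIF, had levels of 4.72, 7.62 and 7.56 in NOD ES, against 5.78, 5.77 and 6.03 in 129 ES. Tbx3, a T-box factor downstream of LIF and PI3K signalling, had levels of 3.24, 6.26 and 6.23 in NOD ES, against 3.99, 3.96 and 4.46 in 129 ES. Nr5a2, the nuclear receptor that can stand in for Pou5f1 in reprogramming, had levels of 2.19, 3.95 and 3.92 in NOD ES, against 1.68, 1.83 and 1.64 in 129 ES. For Klf4 and Tbx3 the 2 brighter NOD ES arrays stand above the 129 ES arrays and NOD-ES 4K below them, and for Nr5a2 each NOD ES array is above each 129 ES array. Without NOD-ES 4K these 3 genes rose, Klf4 by 1.73 ± 0.38 (adjusted p = 0.0334), Tbx3 by 2.11 ± 0.51 (0.0479) and Nr5a2 by 2.22 ± 0.53 (0.0449; log2, SE). With all arrays none of them was called (adjusted p = 0.518, 0.426 and 0.152). A second, dim Tbx3 probe differed by 0.48. Within the slide shared with epiESM, NOD ES 43 KP/CH and 85 KP were higher by 1.56 for Klf4, 1.79 for Tbx3 and 2.30 for Nr5a2.

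Some other members lay the same way without passing. Klf5, another Kruppel-like factor of the naive network, had levels of 2.21, 4.56 and 4.69 in NOD ES, against 2.81, 2.79 and 2.63 in 129 ES (1.88 ± 0.48 without NOD-ES 4K, adjusted p = 0.0557). Tfcp2l1, a CP2-like factor activated by Stat3, had levels of 1.12, 5.65 and 5.64 in NOD ES, against 3.94, 3.92 and 3.34 in 129 ES (1.91 ± 0.69, adjusted p = 0.158). Esrrb, an orphan receptor of the same network, differed by 1.19 ± 0.79 (adjusted p = 0.507), and Fbxo15, a Pou5f1 and Sox2 target, by 1.24 ± 0.40 (0.112). Dppa3, a maternal-effect gene, and Zfp42, the widely used marker Rex1, were highest on the epiESM array, with levels of 4.64 and 6.47 there. Gbx2, a homeobox gene downstream of Stat3, was lower in NOD ES: its levels were -2.13, -1.32 and -1.54 in NOD ES, against 0.67, 0.64 and 1.35 in 129 ES, with no overlap. It fell in both fits, by 2.55 ± 0.38 with all arrays (adjusted p = 0.0142) and by 2.32 ± 0.40 without NOD-ES 4K (0.0189), although its spot was not well above background on NOD-ES 4K. Within the slide it differed by -2.78. Of 21 naive genes tested, 0 rose and 1 fell with all arrays, and 3 rose and 1 fell without NOD-ES 4K. Of all genes, 1.82% rose and 0.884% fell with all arrays and 2.51% rose and 0.979% fell without NOD-ES 4K, the shares beside which the counts of each list here stand. The naive list's median difference was 0.05 with all arrays and 0.83 without NOD-ES 4K, beside 0.22 and 0.09 over all genes. Of its 21 genes, 12 were higher in NOD ES with all arrays, beside 14576 of all 23192 genes. Without NOD-ES 4K 15 were higher, beside 13222 of all genes, and 6 were lower. The lower ones were Gbx2, Dppa3, Pecam1, Sox15, Dppa5a and Klf2 (-0.20, with a second probe at 1.02).

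**Figure D2:**
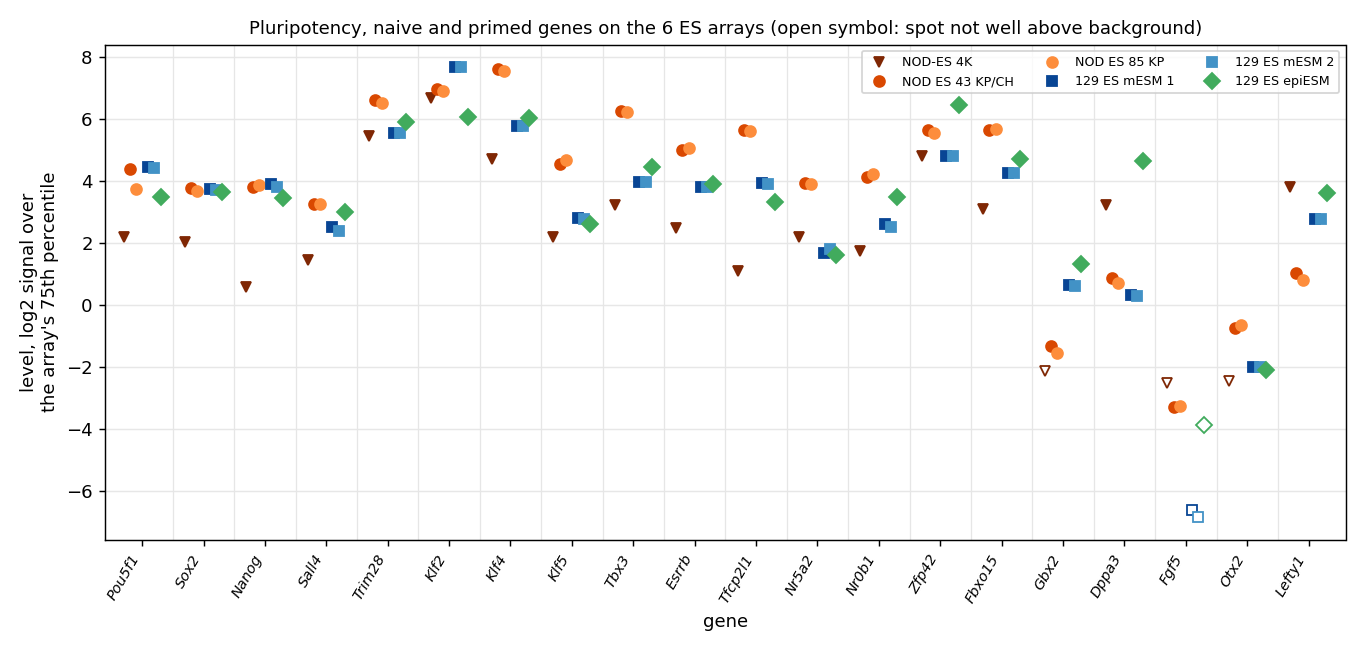
Level (log2 signal over the array's 75th percentile) of 20 pluripotency, naive and primed genes on the 3 NOD ES and 3 129 ES arrays, with open symbols where a spot was not well above background. Klf4, Tbx3, Klf5 and Nr5a2 are highest on NOD ES 43 KP/CH and 85 KP, NOD-ES 4K is lowest for Pou5f1 and Nanog, and Gbx2 is lower on each NOD ES array than on each 129 ES array.

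Of 18 genes of the primed epiblast tested, 1 rose with all arrays and none was called without NOD-ES 4K. Their median differences were -0.07 and -0.44, beside 0.22 and 0.09 over all genes, and 12 of the 18 were lower in NOD ES without NOD-ES 4K. The called gene was Fgf5, the ligand that marks the postimplantation epiblast. Its levels were -2.50, -3.27 and -3.24 in NOD ES, against -6.61, -6.83 and -3.84 in 129 ES. It was well above background only on NOD ES 43 KP/CH and 85 KP, so the difference is a bound, at least 2.49-fold higher in NOD ES without NOD-ES 4K, where it was not called (adjusted p = 0.0743). The call with all arrays (adjusted p = 0.0409) takes in the NOD-ES 4K value, which is at that array's floor for dim spots. Otx2, which drives the exit from the naive state, had levels of -2.44, -0.74 and -0.65 in NOD ES, against -1.99, -2.00 and -2.10 in 129 ES (1.34 ± 0.40 without NOD-ES 4K, adjusted p = 0.087). Lefty1, a NODAL antagonist, had levels of 3.81, 1.05 and 0.82 in NOD ES, against 2.78, 2.78 and 3.62 in 129 ES (-2.12 ± 0.55 without NOD-ES 4K, adjusted p = 0.0561).

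The signalling lists gave few calls each. In the LIF pathway, Stat3, the transcription factor that carries the LIF signal, had levels of 3.95, 3.91 and 3.91 in NOD ES, against 1.69, 1.68 and 3.23 in 129 ES. It rose by 1.73 ± 0.41 with all arrays (adjusted p = 0.0466) and differed by 1.72 ± 0.47 without NOD-ES 4K (0.0703), with a second, dim probe at 0.28. The epiESM level is much nearer to NOD ES than the mESM levels are, and the same holds for the AP-1 gene Junb, with levels of 4.73, 4.88 and 4.76 in NOD ES, against 2.46, 2.46 and 4.42 in 129 ES (adjusted p = 0.056). The immediate early gene Egr1 had levels of 3.11, 2.83 and 3.10 in NOD ES, against -1.16, -1.12 and 4.01 in 129 ES and was not called. In the FGF and ERK feedback list of 16 genes, Phlda1 rose by 2.97 ± 0.70 without NOD-ES 4K (adjusted p = 0.0434), with levels of 2.02, 3.78 and 3.93 in NOD ES, against 0.76, 0.78 and 1.09 in 129 ES. Dusp6, the ERK phosphatase induced by ERK itself, had levels of 4.28, 4.94 and 4.92 in NOD ES, against 3.33, 3.33 and 3.73 in 129 ES, and was not called (adjusted p = 0.0756 without NOD-ES 4K). The list's median was 0.54 with all arrays and 0.79 without NOD-ES 4K.

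Of 21 WNT targets, 2 fell without NOD-ES 4K, beside 0.979% of all genes, and none was called with all arrays, beside 2.71%. Their median differences were -0.02 without NOD-ES 4K and 0.33 with all arrays. Nkd1, an inducible inhibitor of Dishevelled, had levels of -1.41, -3.36 and -3.40 in NOD ES, against -1.63, -1.83 and -1.31 in 129 ES, and fell by 1.79 ± 0.43 (adjusted p = 0.0449). Znrf3, the ligase that removes Frizzled receptors, fell by 1.00 ± 0.20 (adjusted p = 0.0274). Of 14 genes of the NODAL and SMAD2/3 list, Skil, a SMAD-induced repressor, fell by 1.23 ± 0.23 without NOD-ES 4K (adjusted p = 0.0234), with levels of 1.94, 0.72 and 0.93 in NOD ES, against 2.09, 2.03 and 2.05 in 129 ES. A second Skil probe, above background on all 6 arrays, differed by -0.23. Bmpr1a, a BMP type I receptor, had levels of -0.23, -0.47 and -0.19 in NOD ES, against 0.92, 0.95 and 0.48 in 129 ES. It fell in both fits, by 1.08 ± 0.22 (adjusted p = 0.0306) and by 1.11 ± 0.24 without NOD-ES 4K (0.0333), and was the single call of 13 BMP genes in each.

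The chromosome 12 imprinted region between Dlk1 and Dio3 held the highest difference of all genes tested without NOD-ES 4K, that of Dio3, and RNAs that were low on NOD ES 43 KP/CH and 85 KP. From the maternal chromosome it gives a run of noncoding RNAs, Meg3, Rian and Mirg, and from the paternal one the protein genes Dlk1 and Dio3. The region is known for being silenced on the maternal side in some mouse pluripotent lines. In GRCm38 Dlk1 lies at chr12:109452485-109463336, Meg3 at chr12:109540996-109571729, Rian at chr12:109603945-109661716, Mirg at chr12:109734981-109749458 and Dio3 at chr12:110279230-110281097. The RefSeq promoters of Meg3 and of Dio3, which lie on either side of Rian and Mirg, are shown because levels in NOD ES 43 KP/CH and 85 KP were low for one and high for the other. Each runs from 250 bases before to 50 after the gene's start on the plus strand of GRCm38 (chr12:109540746-109541045 and chr12:110278980-110279279), and capitals mark the dinucleotide CG, the site of CpG methylation, which these arrays do not measure.
Meg3: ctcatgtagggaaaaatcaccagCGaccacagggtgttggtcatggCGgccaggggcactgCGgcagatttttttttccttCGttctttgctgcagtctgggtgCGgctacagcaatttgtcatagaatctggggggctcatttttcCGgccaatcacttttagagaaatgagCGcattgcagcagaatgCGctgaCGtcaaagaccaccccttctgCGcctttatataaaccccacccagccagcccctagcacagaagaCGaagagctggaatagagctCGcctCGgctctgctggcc
Dio3: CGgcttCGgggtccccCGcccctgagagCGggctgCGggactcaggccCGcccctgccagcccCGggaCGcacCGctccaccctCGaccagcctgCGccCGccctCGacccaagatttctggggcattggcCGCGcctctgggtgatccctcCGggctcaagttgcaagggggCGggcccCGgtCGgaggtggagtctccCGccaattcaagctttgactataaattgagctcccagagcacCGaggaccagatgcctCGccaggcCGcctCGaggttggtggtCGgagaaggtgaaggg
The Meg3 sequence holds 13 CG and the Dio3 sequence 25. Of 32851 promoter sequences of the same length in the table, 37.9% hold at least as many as Meg3 and 18.4% at least as many as Dio3. Rian and Mirg carry 3 and 10 microRNA hairpins on the same strand. Mature products of Rian and Mirg in RefSeq are shown as what these transcripts give rise to, with the seed (bases 2 to 8) in capitals. The arrays used here measure the host transcripts and not the mature microRNAs.
mmu-miR-370-3p, in Rian: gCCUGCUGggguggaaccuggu
mmu-miR-409-3p, in Mirg: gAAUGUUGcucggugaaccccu
mmu-miR-369-3p, in Mirg: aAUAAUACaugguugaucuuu
mmu-miR-410-3p, in Mirg: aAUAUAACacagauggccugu

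Rian had levels of 3.68, -3.96 and -6.55 in NOD ES, against 0.60, 0.61 and 3.64 in 129 ES. NOD ES 43 KP/CH and 85 KP are far below every 129 ES array, with the spot of 85 KP not above background, while NOD-ES 4K equals the highest 129 ES array. Rian fell without NOD-ES 4K (adjusted p = 0.0351) and was not called with all arrays (-3.89 ± 2.14, adjusted p = 0.357). The fitted difference without NOD-ES 4K, -6.87 ± 1.52, takes in the unmeasured spot of 85 KP, so its size is uncertain. A second Rian probe, above background on 3 of the 6 arrays, differed by -3.80. Mirg had levels of 2.74, -4.29 and -6.73 in NOD ES, against -0.57, -1.29 and 0.91 in 129 ES (-5.19 ± 1.32 without NOD-ES 4K, adjusted p = 0.0534), and its spot was likewise not above background on 85 KP. Meg3 had levels of 6.78, 1.69 and 0.79 in NOD ES, against 4.00, 3.95 and 5.58 in 129 ES (-3.27 ± 1.21, adjusted p = 0.168), and its 5 probes ran from -3.47 to -0.87. These RNAs share the same order of arrays: NOD-ES 4K and epiESM high, mESM between, NOD ES 43 KP/CH and 85 KP low. Dlk1, which encodes a transmembrane ligand and was added after its values were seen, had levels of 0.01, -2.99 and -2.85 in NOD ES, against -0.04, -0.04 and -1.25 in 129 ES (-2.48 ± 0.78, adjusted p = 0.105).

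Dio3, the deiodinase that inactivates thyroid hormone, went the other way and was the most raised gene named here. Its levels were 1.69, 5.07 and 4.87 in NOD ES, against -0.51, -0.55 and 0.54 in 129 ES. Each NOD ES array is above each 129 ES array, NOD-ES 4K by the least. Dio3 rose by 4.05 ± 0.93 with all arrays (adjusted p = 0.0415) and by 5.14 ± 0.80 without NOD-ES 4K (0.0159). Within the slide that holds NOD ES 43 KP/CH, NOD ES 85 KP and epiESM the differences were 4.43 for Dio3 and -4.35 for Meg3. The array iPS_EpiSC 1K, labelled non-NOD, had levels of -4.09 for Rian, 0.70 for Meg3 and 5.07 for Dio3, close to NOD ES 43 KP/CH and 85 KP, and iPS_EpiSC 3M had levels of 2.19, 6.62 and 1.17, nearer to NOD-ES 4K. Of 30 imprinted genes tested, a list that does not hold Dio3, 1 fell with all arrays and 2 fell without NOD-ES 4K. The gene called in both was Phlda2, a maternally expressed brake on placental growth, with levels of 3.28, 2.62 and 2.56 in NOD ES, against 4.79, 4.81 and 3.37 in 129 ES (-1.51 ± 0.34, adjusted p = 0.041, with all arrays). Mest, which is paternally expressed, was low on the mESM arrays alone, with levels of 3.22, 1.90 and 1.82 in NOD ES, against -3.91, -4.68 and 3.25 in 129 ES.

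**Figure D3:**
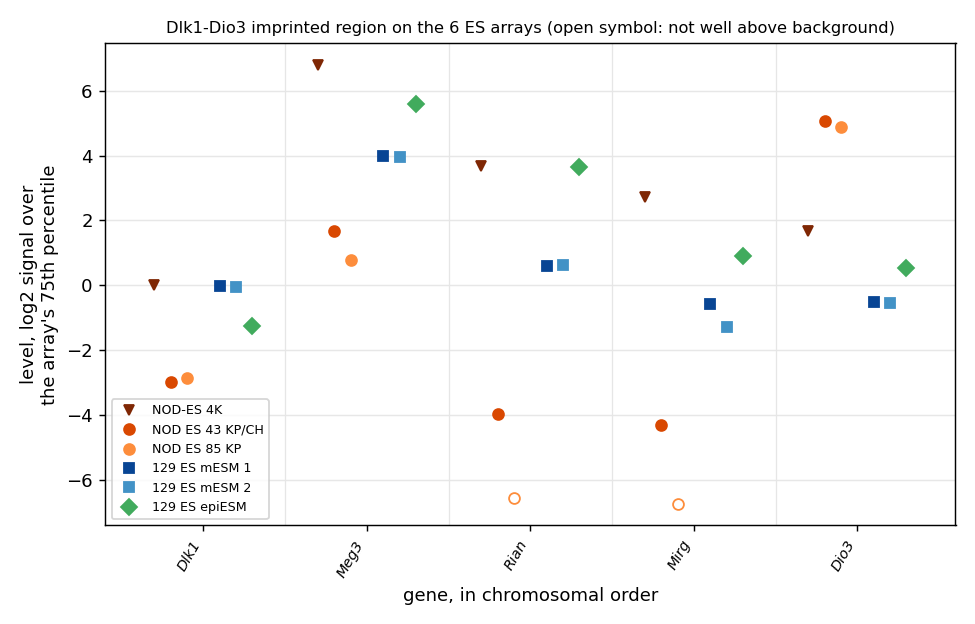
Level of 5 genes of the Dlk1-Dio3 region, in chromosomal order, on the 6 ES arrays (log2 signal over the array's 75th percentile, open where not well above background). Rian, Mirg and Meg3 are lowest and Dio3 is highest on NOD ES 43 KP/CH and 85 KP, and NOD-ES 4K has the highest Meg3 level (6.78).

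The metabolic and cell-cycle lists held at most 3 calls each in either fit. With all arrays and without NOD-ES 4K, the median difference was -0.21 and -0.02 for glycolysis, -0.09 and 0.13 for the respiratory chain, 0.40 and 0.67 for one-carbon and threonine metabolism, and -0.03 and 0.20 for the cell cycle, beside 0.22 and 0.09 for all genes. Ldha, which turns pyruvate into lactate, had levels of 6.26, 6.64 and 6.69 in NOD ES, against 7.51, 7.52 and 7.77 in 129 ES. It fell by 1.07 ± 0.19 with all arrays (adjusted p = 0.0203) and by 0.93 ± 0.19 without NOD-ES 4K (0.0272), the single call of 20 glycolysis genes in each fit. Ndufv1, a complex I subunit, rose by 0.88 ± 0.20 (adjusted p = 0.0399) and by 1.02 ± 0.19 without NOD-ES 4K (0.0234). Nnt, the mitochondrial transhydrogenase, fell by 0.99 ± 0.24 without NOD-ES 4K (adjusted p = 0.0463), but its 4 probes ran from -1.25 to 0.36. Mthfd2, the mitochondrial folate enzyme of proliferating cells, had levels of 3.45, 3.97 and 4.12 in NOD ES, against 2.48, 2.48 and 2.72 in 129 ES. It rose by 1.49 ± 0.34 without NOD-ES 4K (adjusted p = 0.0381). Tdh, the threonine dehydrogenase on which mouse ES cells depend, had levels of 6.58, 7.81 and 7.83 in NOD ES, against 6.09, 6.09 and 7.47 in 129 ES and was not called.

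Of 25 cell-cycle genes, 1 rose and 1 fell with all arrays, and 2 rose and 1 fell without NOD-ES 4K. Cdk6, a kinase of the G1 phase, had levels of 2.53, 2.94 and 3.24 in NOD ES, against 0.81, 0.80 and 1.43 in 129 ES. It rose by 1.89 ± 0.29 (adjusted p = 0.0147) and by 2.08 ± 0.30 without NOD-ES 4K (0.0155), while its 2 dimmer probes differed by -0.19 and -0.26. Cdk1, the kinase of mitotic entry, had levels of 1.03, 1.85 and 1.74 in NOD ES, against 3.15, 3.13 and 2.94 in 129 ES. It fell by 1.53 ± 0.31 (adjusted p = 0.0282) and by 1.27 ± 0.30 without NOD-ES 4K (0.0442), with a second, dim probe at 0.24. Mcm7, a subunit of the replicative helicase, rose by 0.88 ± 0.21 without NOD-ES 4K (adjusted p = 0.0449). Sesn2, a stress-induced inhibitor of mTORC1 and p53 target, had levels of 5.62, 6.09 and 5.73 in NOD ES, against 3.63, 3.59 and 4.48 in 129 ES. It rose by 1.91 ± 0.28 with all arrays (adjusted p = 0.0142) and by 2.01 ± 0.31 without NOD-ES 4K (0.0159). Of 16 p53 targets it was 1 of 2 that rose with all arrays, beside Bbc3, the death gene PUMA (1.12 ± 0.26, adjusted p = 0.0423), and the 1 that rose without NOD-ES 4K. Of 9 genes of the Myc family, Mnt, a MAX partner that opposes MYC, rose in both fits (1.94 ± 0.40, adjusted p = 0.0294, with all arrays). Its levels were 4.79, 4.71 and 4.65 in NOD ES, against 2.21, 2.20 and 3.93 in 129 ES. Mxd1, another antagonist, rose by 1.96 ± 0.46 without NOD-ES 4K (0.0438), with a second probe at 0.34. Myc itself differed by 0.29 ± 0.27 with all arrays (adjusted p = 0.566).

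Of 24 genes tested that serve to present peptides on MHC class I to T cells, none was called in either fit, beside 2.71% and 3.49% of all genes. The list holds H2 class I genes together with B2m and genes of peptide transport, the proteasome and chaperones, such as Tap1, Psmb8 and Calr. H2-K1 had levels of 2.61, 1.21 and 1.26 in NOD ES, against 3.03, 3.00 and 2.29 in 129 ES (-1.54 ± 0.44 without NOD-ES 4K, adjusted p = 0.0772). The list's median was -0.38 with all arrays and -0.85 without NOD-ES 4K. NOD and 129 carry different MHC haplotypes and the H2 class I genes are near-identical copies, so which gene or allele an H2 probe reads is uncertain here. Whether strain variants lie under these or other probes was not tested. Of 10 genes of the class II list, which also holds Cd74 and Ciita, H2-DMb1, a chaperone of peptide loading, rose by 1.30 ± 0.24 without NOD-ES 4K (adjusted p = 0.0199). Its levels were -2.59, -1.55 and -1.64 in NOD ES, against -2.87, -2.90 and -2.93 in 129 ES. Of 34 interferon-response genes, Eif2ak2, the kinase PKR, rose by 1.27 ± 0.25 without NOD-ES 4K (adjusted p = 0.0248).

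Markers of other cells and states moved with single arrays, and their part in the differences above was not tested. In these bulk RNA samples fewer cells of a type and less RNA per cell cannot be told apart. All 24 fibroblast feeder markers were tested. The median level of the list was 1.59, 0.21 and 0.20 in NOD ES, against -2.19, -1.85 and 2.57 in 129 ES, and 17, 22 and 22 of the 24 markers were above background in NOD ES, against 21, 21 and 24 in 129 ES. The matrix gene Postn had levels of 2.34, 0.65 and 0.50 in NOD ES, against -5.38, -5.42 and 3.73 in 129 ES. The list therefore separates the epiESM from the mESM culture (median 3.97) by more than NOD ES from 129 ES (1.06 with all arrays, 0.57 without NOD-ES 4K). No feeder marker was called with all arrays, and Pdgfra, a growth factor receptor, fell without NOD-ES 4K, with levels of -2.61, -5.08 and -5.07 in NOD ES, against -2.87, -2.93 and -2.98 in 129 ES (adjusted p = 0.0233). Of the 10 spots of its probe, 1 was above background on NOD ES 43 KP/CH and 2 on NOD ES 85 KP, so the size is uncertain, and a second, dim probe differed by 0.10. The median level of the 9 tested genes of the 2-cell-like state behaved alike, at 1.21, -0.87 and -1.22 in NOD ES, against -2.53, -2.39 and 2.59 in 129 ES. Of these genes, Zscan4c had levels of 1.21, -0.87 and -1.22 in NOD ES, against -2.22, -2.14 and 2.66 in 129 ES. Usp17lc, above background on none of the 6 arrays, did not follow, with levels of -2.62, -4.47 and -4.73 in NOD ES, against -5.59, -7.13 and -5.18 in 129 ES. Among Y-linked genes, the helicase Ddx3y had levels of 0.93, -3.96 and -4.42 in NOD ES, against -5.75, -5.99 and 0.41 in 129 ES. Eif2s3y, a translation factor gene, was high on the same 2 arrays, with levels of 1.34, -3.18 and -4.76 in NOD ES, against -6.67, -6.84 and 2.61 in 129 ES. The list did not move as one: Usp9y was high on NOD-ES 4K (1.58) and not on epiESM (-6.15), and Zfy1 had levels of -1.80, -1.97 and -1.60 in NOD ES, against -2.37, -2.18 and -1.95 in 129 ES. Xist, the RNA of the inactive X chromosome, was tested by a probe above background on no NOD ES array, with levels of -4.38, -4.28 and -2.81 in 129 ES. Another Xist probe, above background on 5 of the 6 arrays, had levels of -2.63, -2.39 and -2.85 in NOD ES, against -2.44, -2.29 and -3.11 in 129 ES, which overlap. Of 9 Y-linked and 4 X inactivation genes tested none was called in either fit.

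Rhox5, an X-linked homeobox gene, was high on the mESM arrays alone, with levels of 2.02, 1.60 and 1.69 in NOD ES, against 6.26, 6.22 and 2.18 in 129 ES, and was not called. The trophectoderm factor Tead4 rose by 1.97 ± 0.36 without NOD-ES 4K (adjusted p = 0.0199), with levels of -1.22, 0.48 and 0.50 in NOD ES, against -1.36, -1.41 and -1.66 in 129 ES. Krt19, a simple-epithelium keratin, rose by 1.13 ± 0.23 with all arrays (adjusted p = 0.0278) and also passed without NOD-ES 4K (0.0372). Its levels were 1.54, 1.43 and 1.44 in NOD ES, against 0.15, 0.11 and 0.76 in 129 ES. None of the 16 mesendoderm, 14 neuroectoderm, 22 germ line or 12 immune cell genes tested was called in either fit. With 2.71% and 3.49% of all genes called, lists of this size need hold none, so these counts say nothing particular of them.

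**Figure D4:**
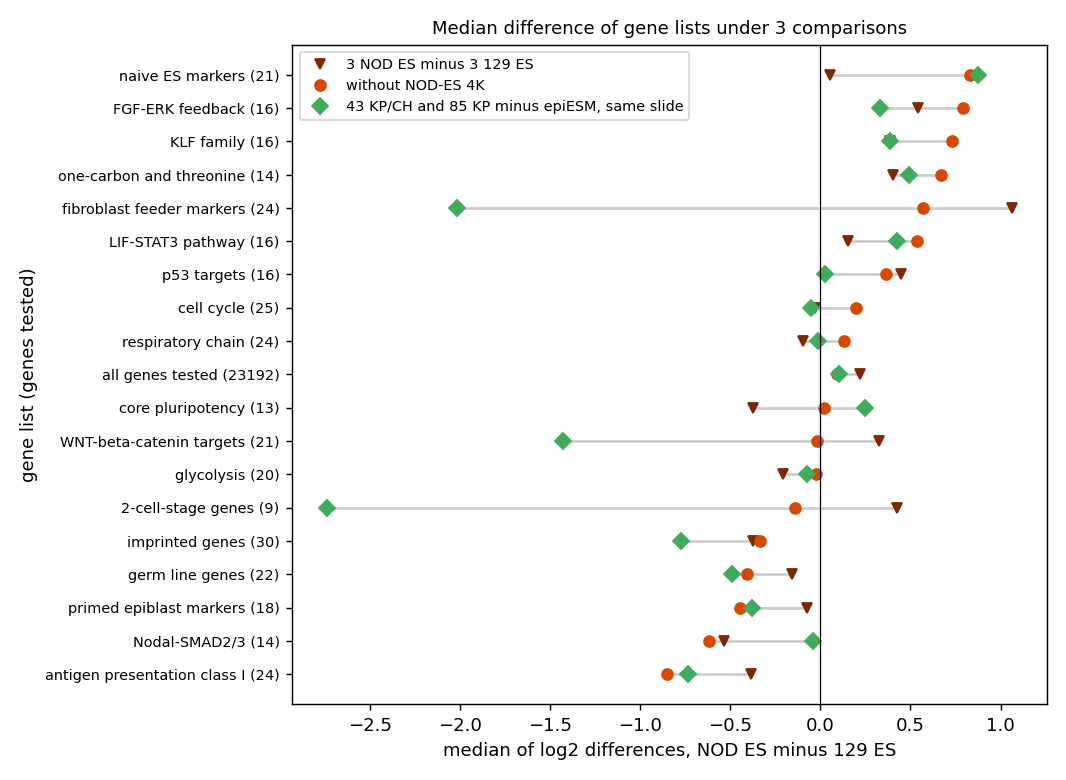
Median log2 difference, NOD ES minus 129 ES, of 18 gene lists and of all genes tested (number of genes in brackets), with all arrays, without NOD-ES 4K, and for NOD ES 43 KP/CH and 85 KP minus the epiESM array of the same slide. Naive markers lie at 0.83 without NOD-ES 4K and 0.87 within the slide, while feeder markers change sign (1.06 with all arrays, -2.02 within the slide).

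The genes named for the largest changes were called in both fits in the same direction with no overlap between groups. The 12 most raised were Dio3, Mrg1, Lhx5, 4833419E13Rik, BC016608, Npy, Nebl, Fam25c, Aldh1a3, Mtarc1, Hhip and Them5, with differences of 2.39 to 5.14 without NOD-ES 4K. Fam25c was bright on each array, with levels of 3.92, 4.86 and 5.07 in NOD ES, against 2.28, 2.23 and 2.76 in 129 ES, and rose by 2.19 ± 0.48 with all arrays (adjusted p = 0.0368). Lhx5, a LIM homeobox gene of the forebrain, had levels of -2.54, -1.71 and -1.59 in NOD ES, against -4.41, -4.34 and -5.12 in 129 ES, and rose by 2.98 ± 0.34 without NOD-ES 4K (adjusted p = 0.011). Npy, which encodes neuropeptide Y, rose by 2.62 ± 0.51 (adjusted p = 0.024). The other raised genes were dim. Dim spots on NOD-ES 4K sit at a floor near -2.5, so that array's part in a raised dim gene is no measurement: Fam25c and Dio3 were the raised genes that it measured above background. For some, the tested probe was above background on no 129 ES array, which leaves a bound without NOD-ES 4K: Nebl, an actin-binding protein, was at least 2.63-fold higher and Mtarc1, a molybdenum enzyme, at least 1.70-fold higher. The bound for Nebl holds for the tested probe only, as its 3 probes ran from 0.16 to 2.57 in log2 difference. For Aldh1a3, a retinoic acid enzyme, the tested probe gave a bound of at least 2.81-fold, but a second probe, above background on 5 of the 6 arrays, differed by 0.07, with levels of -2.37, -4.01 and -3.75 in NOD ES, against -4.09, -4.48 and -3.30 in 129 ES. Of the 810 genes called without NOD-ES 4K, 55 were above background on neither of the 2 NOD ES arrays and 20 on none of the 129 ES arrays.

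The 12 most lowered genes were Acp5, Tnfrsf13c, Slc39a10, Gbx2, Simc1, 9630010G10Rik, Tefm, AK051598, Slc38a4, NAP027398-1, Zfp948 and Selenop, with differences of -2.65 to -1.86 without NOD-ES 4K. Acp5, the tartrate-resistant acid phosphatase, had levels of -1.79, -1.85 and -2.10 in NOD ES, against 1.17, 1.14 and -0.28 in 129 ES (-2.65 ± 0.41, adjusted p = 0.0159). Zfp948, a KRAB zinc finger gene, had the evenest levels, -1.55, -1.08 and -1.04 in NOD ES, against 0.83, 0.84 and 0.76 in 129 ES, and fell by 1.87 ± 0.25 without NOD-ES 4K (adjusted p = 0.0112). Slc38a4, an imprinted amino acid transporter, had levels of 0.60, 0.68 and 0.76 in NOD ES, against 3.20, 3.16 and 1.58 in 129 ES, and fell by 1.92 ± 0.43 (adjusted p = 0.0361). Slc39a10, a zinc importer, fell by 2.35 ± 0.48 (adjusted p = 0.0274), and Selenop, the plasma selenium carrier, by 1.86 ± 0.32 (0.0186). Tefm, a mitochondrial transcription factor, fell by 2.01 ± 0.47 (adjusted p = 0.0438), with a second probe, above background on none of the 6 arrays, at 0.78.

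**Figure D5:**
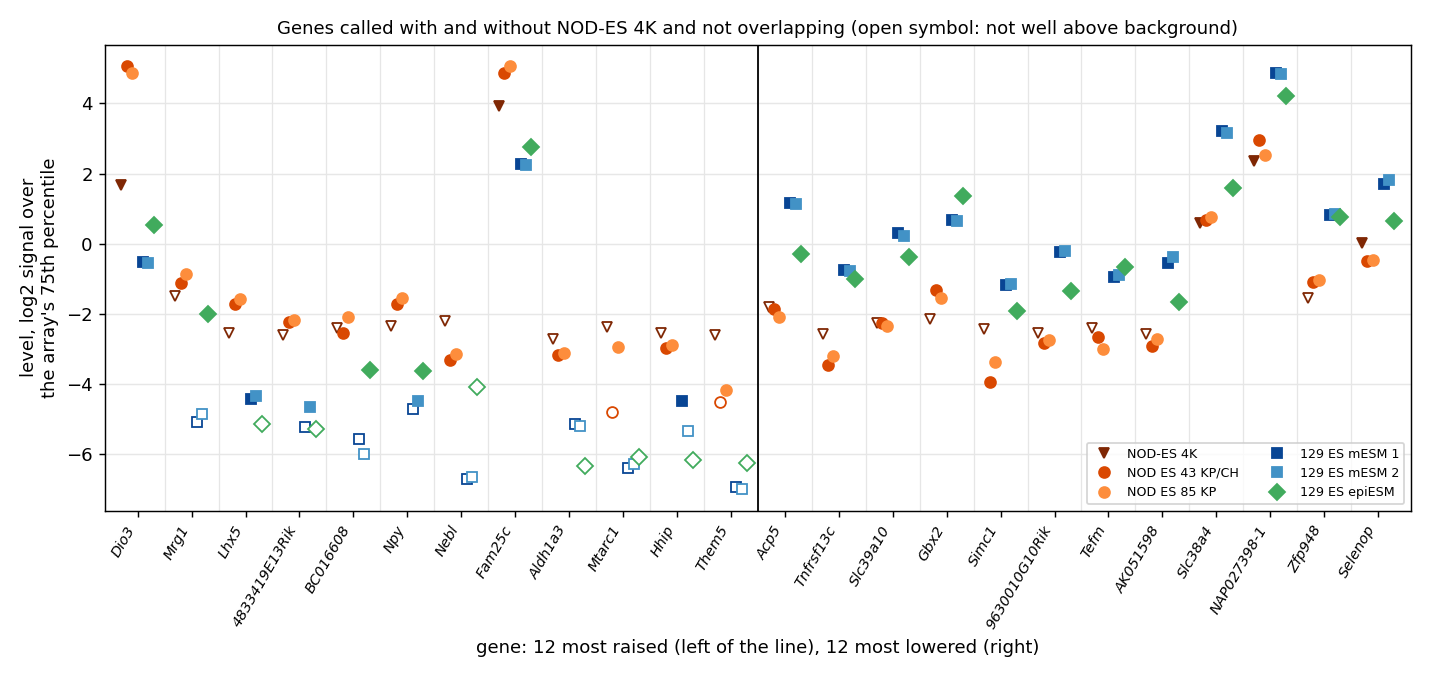
Level (log2 signal over the array's 75th percentile) of the 12 most raised genes (left of the line) and the 12 most lowered genes (right) on the 3 NOD ES and 3 129 ES arrays, open where not well above background. Dio3 and Fam25c are the raised genes that NOD-ES 4K measured, and most 129 ES symbols of the other raised genes are open.

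The series also holds EpiSC-like NOD lines and non-NOD EpiSC, which give a contrast of NOD with non-NOD arrays in the primed state. Its NOD side is the mean of an EpiSC-like ES line (#1) and an EpiSC-like iPS line (#6), each with equal weight. Passages of each line were counted as replicates, and EpiSC was P12 and P20. Derivation, line and passage therefore cannot be told apart from strain in this contrast or in the counts below. The difference between NOD and non-NOD arrays was itself different between the ES and the EpiSC-like state for 1503 genes (6.48%), with 894 (3.85%) higher and 609 (2.63%) lower for the ES state (limma contrast, adjusted p under 0.05). Without NOD-ES 4K the count was 2791. Of the 810 genes called in ES cells without NOD-ES 4K, 84 were also called in NOD EpiSC-like lines against EpiSC in the same direction, 53 higher and 31 lower in NOD, and 98 in the opposite direction. Of all 23192 genes, 2860 were called in the EpiSC-like lines. Whether the overlap differs from that of unrelated calls was not tested. The ES calls come from the fit without NOD-ES 4K and the EpiSC-like calls from the fit to all arrays. These fits share all arrays but NOD-ES 4K, so their estimates of the spread are not independent. Among the genes named above, those with the same direction in both states were Npy, Slc38a4, Skil, Cdk1 and Znrf3, together with Gadd45b, a DNA-damage gene linked to demethylation. Npy was higher by 2.62 in NOD ES and by 2.69 in the NOD EpiSC-like lines, and Slc38a4 differed by -1.92 and -2.13. Dio3 differed by 0.06 in the EpiSC-like state.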

How the data were processed

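Per the file headers, the authors' scanner files are Agilent Feature Extraction output of design 014868 with 1 spot intensity per row (grid build mm7), already background-corrected in the processed signal. The authors also deposited a table of log2 values, used as an alternative: each column ranks spots as the raw mean signal does and has a median of 6.93. The submitters' processing notes name limma, with no version. The level used here is log2 of the processed intensity minus the array's 75th percentile. Outlier spots were left out, spots of a probe averaged, and probes kept that were well above background on at least 2 of 16 arrays (34334 of them, 23192 genes, 1 probe per gene by highest mean). Of 41174 gene probes, 8455 kept the file's name and the others were named through RefSeq accessions or symbols. limma 3.58.1 in R 4.3.3 was fitted to all 16 arrays with 1 mean per group and repeated without NOD-ES 4K. The adjusted p (Benjamini-Hochberg, over all genes) was called under 0.05. On simulated data the fit without NOD-ES 4K recovered 95% of changes of 4 and 80% of changes of 2 log2 units, and 10 of its 185 calls were false. The simulated noise was independent on each array, and changes were planted only in genes with a mean level above 0. Near-duplicate arrays such as the mESM pair and dim called genes were not simulated, so these shares need not hold for the calls above. A probe counts as above background on an array where no fewer of its spots are above than not, and one above background on no array of a group has only a bound. Array number limits the precision. Genes were named by rule: the marker lists, up to 5 members of other lists (called first, then by size), the 12 most raised and 12 most lowered genes called in both fits without overlap, and 5 in each direction for the difference between states. Members and lists were chosen with earlier results of these data known. Promoters and microRNAs are RefSeq's (GRCm38.p6).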

Additional observations from a re-analysis of the deposited data

Results flagged for a closer look

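The difference between NOD and non-NOD arrays was tested as a difference between states: NOD ES minus 129 ES, less the mean of the NOD EpiSC-like lines minus EpiSC. The following genes are those with the widest such differences, in log2 units, among genes also called in NOD ES against 129 ES with all arrays. The widest on the higher side were Fgf5 (6.29), Egr3 (6.19), Apol8 (5.80), Nkx2-9 (5.71) and Gbp2b (5.46). These values come from the fit to all arrays, in which dim spots of NOD-ES 4K sit at a floor. In NOD ES minus 129 ES without NOD-ES 4K, the 2 probes of Egr3 differed by 0.14 and 2.19, and those of Apol8 by 0.23 and 1.98. The spot of Nkx2-9 was not well above background on any of the 6 ES arrays, so its value rests on background there. Fgf5 was at least 2.49-fold higher in NOD ES over 129 ES without NOD-ES 4K, and differed by -3.53 ± 0.64 in the NOD EpiSC-like lines over EpiSC (SE, limma adjusted p = 0.00407). Gbp2b, an interferon-induced GTPase, was at least 2.35-fold higher in NOD ES without NOD-ES 4K and differed by -3.50 ± 0.29 in the EpiSC-like lines.

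The widest on the lower side were Acp5 (-5.39), Tfpi (-4.47), B3galnt1 (-4.06), TC1466661 (-3.54) and E130311K13Rik (-3.53). Acp5 fell by 2.59 ± 0.36 in NOD ES with all arrays, and differed by 2.80 ± 0.37 in the NOD EpiSC-like lines over EpiSC (adjusted p = 0.000648). Tfpi, the tissue factor pathway inhibitor, fell by 2.32 ± 0.52 in NOD ES with all arrays and differed by 2.14 ± 0.53 in the EpiSC-like lines.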

How the results depend on the processing

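The counts of called genes depend strongly on the setting. Values are given for all arrays, for the fit without NOD-ES 4K and for the difference between states, against 628, 810 and 1503. Under normexp background correction they were 0, 0 and 8 (limma; 1181 and 1346 genes at an unadjusted p under 0.05 in the first and the second). With only the NOD ES and 129 ES arrays they were 0 and 0. With the mESM arrays averaged they were 0, 0 and 721. With slide as a fixed block they were 0 (3205 genes at an unadjusted p under 0.05), 1443 and 452, resting on the 1 slide that holds both groups. The fit that gave 1443 also left out the iPS arrays made from EpiSC. The authors' deposited value table gave 1200, 1216 and 2272, and array weights 13033, 12414 and 11549. Without EpiSC_iPS replicate 2 (titled iPS_EpiSC 1K) the first 2 were 1067 and 2144. No filter on dim probes gave 271 and 439, and the mean over all probes of a gene 264 and 473. Leaving out each ES array in turn gave 0 to 2029 with all arrays, 0 to 3005 without NOD-ES 4K and 720 to 2876 for the difference between states. The low ends came without the first mESM array (0, 0 and 720; 2760 and 3232 genes at an unadjusted p under 0.05 in the first 2), and also without NOD ES 43 KP/CH or 85 KP in the second (0 each, 2595 and 2265 at an unadjusted p under 0.05). Without the second mESM array they were 2, 13 and 721, and the high ends came without epiESM. The cause of these shifts was not tested. The share called higher also moved: with the 75th percentile over probes measured on every array, 383 rose and 453 fell with all arrays, and 343 and 401 without NOD-ES 4K, and the authors' table gave 557 and 643. Of the named genes, 1 called difference changed sign: Nkx2-9 without NOD-ES 4K was -0.0726 under normexp. No paired analysis was possible because the labels give nothing that pairs each NOD ES array with a 129 ES array. NOD-ES 4K measured 26.3% of spots above background, which limits it to bright genes. The median difference over all genes, 0.22 with all arrays and 0.09 without NOD-ES 4K, was -0.05 and -0.13 under normexp, and that of the naive list was 0.04 and 0.89.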
